A study of Mus musculus with 208 samples.

Results

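The 8 genes described here encode the enzymes that write DNA methylation (Dnmt1, Dnmt3a and Dnmt3b), the enzymes that oxidise it (Tet1, Tet2 and Tet3) and a pair of proteins that read it (Mbd1 and Mbd2). They were taken by symbol from the count matrices of 4 brain regions, and make up 8 of the 46403 genes in those matrices. DNMT1 copies methylation onto the new strand after replication and is also kept by postmitotic neurons. DNMT3A and DNMT3B place new methyl groups on cytosine, and DNMT3A is the writer of the non-CG methylation that builds up in neurons after birth. The TET proteins oxidise 5-methylcytosine to 5-hydroxymethylcytosine, which is abundant in neurons and is a step towards demethylation. MBD1 and MBD2 carry a methyl-CpG-binding domain through which they bring repressive complexes to methylated DNA, MBD2 as part of the NuRD complex.

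The mice were wild type C57BL/6NTac. Dams carried minipumps with saline or morphine sulfate (10 mg/kg/day), all pups were raised by surrogate dams, and the pups then received saline or morphine (10 mg/kg) under the skin. As adults the offspring were given saline or LPS, a bacterial endotoxin, 2 h before the brain was collected, which gives 4 conditions named by exposure and then challenge: SAL-SAL and SAL-LPS for saline-reared animals, MOR-SAL and MOR-LPS for morphine-exposed ones. About 5000 nuclei positive for the neuronal protein NeuN were sorted per library, and their RNA was sequenced by a Smart-seq3 protocol with tagmentation. The 208 libraries carried 71 replicate numbers of the form 12-0, each taken as 1 animal, with 18 first parts (prefixes), as 51 hypothalamic, 55 hippocampal, 48 prefrontal cortex (PFC) and 54 striatal libraries. SAL-SAL held 11 hypothalamic, 13 hippocampal, 10 PFC and 13 striatal libraries, MOR-SAL 14, 12, 12 and 8, SAL-LPS 12, 14, 10 and 15, and MOR-LPS 14, 16, 16 and 18. The labels do not say what a prefix stands for. Of the 18 prefixes 1 held both sexes, 17 both challenges and 0 both exposures, so prefix and exposure cannot be told apart, and litters were nested within exposure by the study's methods. Animals of 1 prefix entered as separate replicates, and the comparisons below share control animals.

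Some libraries stood apart. Total counts were 7673 to 35077048 in hypothalamic, 227025 to 24071488 in hippocampal, 3056648 to 21988203 in PFC and 5954700 to 92945090 in striatal libraries, of which 3, 2, 3 and 0 respectively held under 0.5 of their region's median. In 9 libraries the summed CPM of 4 Y-linked genes went against the labelled sex (7 labelled female above, and 2 labelled male below, 10% of the median of the region's males). Of these, 3 were from the hypothalamus, 4 from the hippocampus, 2 from the PFC and 0 from the striatum. They included 2 MOR-SAL libraries in each of these 3 regions. Marker sums are given in CPM normalized by TMM within each region's own libraries. Neuronal markers were high in every region, with median sums of 2554, 5447, 6265 and 4970 normalized CPM in the hypothalamus, hippocampus, PFC and striatum, against 377.6, 371.1, 330.4 and 392.8 for oligodendrocyte markers. The regional markers fitted the labels unevenly. The median sum of the hypothalamic neuropeptide genes was 37.05 normalized CPM in the hypothalamus, with a range of 0 to 373, against 7.174 to 11 elsewhere, and that of the striatal genes was 479.8 in the PFC and 478.2 in the striatum. The hypothalamus matrix also held 1480 genes whose median reached 5 CPM there while all libraries from elsewhere were at 0, none of them among the 8 genes.

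In the genome (mm10, GENCODE M21) Dnmt1 lies at chr9:20907209-20959888 on the minus strand, Dnmt3a at chr12:3806007-3914443 on the plus strand and Dnmt3b at chr2:153649450-153687730 on the plus strand. Tet1 lies at chr10:62804570-62908996, Tet2 at chr3:133463679-133545139 and Tet3 at chr6:83362373-83459084, all 3 on the minus strand. An antisense gene, Dnmt3aos, shares 133 bp (0.799%) with the exons of Dnmt3a, and since the use of strand in counting was not stated its reads cannot be told apart from those of Dnmt3a there. The 250 bases before an annotated RefSeq start (GRCm38.p6) are shown for the 3 genes on which the results below turn most: Dnmt3a and Tet2, the members called in morphine-exposed animals after LPS when regions were pooled, Dnmt3a not once glial markers were a covariate, and Dnmt3b, the near-absent relative of Dnmt3a. The windows are chr12:3806730-3806979 on the plus strand, which lies inside the Dnmt3a gene model, chr3:133544391-133544640 on the minus strand, inside the Tet2 gene model, and chr2:153649199-153649448 on the plus strand, before the Dnmt3b gene model. Capitals mark the GC box GGGCGG or its complement CCGCCC, searched on both strands.
Dnmt3a window: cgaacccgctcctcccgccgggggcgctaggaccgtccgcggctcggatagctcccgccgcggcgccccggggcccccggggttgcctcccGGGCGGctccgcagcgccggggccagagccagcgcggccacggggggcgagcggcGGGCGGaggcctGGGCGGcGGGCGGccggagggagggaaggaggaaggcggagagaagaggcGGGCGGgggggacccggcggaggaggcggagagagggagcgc
Tet2 window: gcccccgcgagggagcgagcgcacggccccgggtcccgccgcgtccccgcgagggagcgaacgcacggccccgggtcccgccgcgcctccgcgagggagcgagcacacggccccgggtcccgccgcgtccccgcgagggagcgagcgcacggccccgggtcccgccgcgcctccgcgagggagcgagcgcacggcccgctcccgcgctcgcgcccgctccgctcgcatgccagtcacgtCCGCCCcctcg
Dnmt3b window: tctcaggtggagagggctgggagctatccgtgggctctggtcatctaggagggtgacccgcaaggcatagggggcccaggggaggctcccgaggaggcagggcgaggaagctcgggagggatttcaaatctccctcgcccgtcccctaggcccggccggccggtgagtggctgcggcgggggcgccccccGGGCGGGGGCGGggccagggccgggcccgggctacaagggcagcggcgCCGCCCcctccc
The 3 windows are rich in CpG, the dinucleotide that these enzymes act on. The Dnmt3a window held 38 CpG and 5 GC boxes at a GC content of 82.4%. The Tet2 window held 51 CpG, much of it in a repeated unit, and 1 GC box at 83.6% GC. The Dnmt3b window held 21 CpG and 3 GC boxes at 75.2% GC. The median of all 32851 windows was 6 CpG, and 32.7% of them held the GC box. RefSeq windows were matched for 6 of the 8 genes and not for Mbd1 and Mbd2.

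Dnmt3a was the leading writer in neurons of every region, and Dnmt3b was close to absent. Levels of regions and of genes against each other are given as CPM normalized jointly over the 208 libraries, per kb of exon where genes are compared. Levels of conditions or sexes are given further on as CPM normalized within the region, a scale on which single values differ from the joint one. Per kb, Dnmt3a had a median of 30.7 in the PFC, 27.0 in the striatum, 18.1 in the hypothalamus and 17.0 in the hippocampus. That of Dnmt1 was 6.69, 7.05, 9.71 and 5.62 in the same order, so Dnmt3a stood above Dnmt1 by a factor of 1.86 to 4.59, and it did so in all 208 libraries. Dnmt3b had medians per kb of 0.179, 0.430, 0.430 and 0.543, a factor of 31.4 (hippocampus) to 172 (PFC) below Dnmt3a, and was at 0 counts in 15 PFC, 2 striatal, 5 hypothalamic and 5 hippocampal libraries. At such counts a library at 0 allows up to 3 counts of its total, so a low level and absence cannot be told apart in single libraries.

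The 3 writers were ordered differently over the regions. Dnmt3a spanned 208 to 1336 normalized CPM in the PFC (median 511), 144 to 689 in the striatum (449), 46.7 to 612 in the hypothalamus (301) and 143 to 420 in the hippocampus (284). It was higher in the PFC than in the striatum (log2 fold change (log2FC) 0.30, standard error (SE) 0.092, adjusted p = 0.00325 in edgeR's quasi-likelihood test) and in the striatum than in the hypothalamus (0.55, SE 0.0903, adjusted p = 1.91e-08). The hypothalamus and hippocampus were not separated (95% interval of the log2FC -0.07 to 0.28). Here and below, fewer cells of a type and less RNA per cell cannot be told apart in sorted bulk nuclei. The lowest hypothalamic values of Dnmt3a, Dnmt1, Tet2 and Tet3 came from low-depth libraries. Without such libraries these minima were 153, 46.8, 118 and 55.4 normalized CPM. Dnmt1 was highest in the hypothalamus, at 0 to 117 normalized CPM (median 71.6), against medians of 52.0 in the striatum (29.1 to 90.9), 49.4 in the PFC (4.50 to 94.4) and 41.4 in the hippocampus (22.6 to 57.1). The step from the hypothalamus to the striatum was called (log2FC 0.48, SE 0.0834, adjusted p = 1.01e-07 in edgeR), as was that from the PFC to the hippocampus (0.27, adjusted p = 0.00397), while the striatum and PFC were not separated (-0.10 to 0.23). The first of these steps was called in 6 of 7 settings and that from the PFC to the hippocampus in 5 of 7. Dnmt1 and Dnmt3a thus stood in different orders, with the hypothalamus at the top for the maintenance enzyme and the PFC at the top for the de novo enzyme. Dnmt3b reached at most 11.7 normalized CPM in any library, and its median was lowest in the PFC (log2FC of hypothalamus over PFC 1.03, SE 0.344, adjusted p = 0.0056 in edgeR). There it was not separated from the striatum (log2FC of PFC over striatum -0.41, adjusted p = 0.316 in edgeR). Its difference between the hippocampus and the striatum (0.78, adjusted p = 0.0417 in edgeR) was lost without the libraries at odds with their labelled sex (0.78, adjusted p = 0.0511) and when libraries of 1 animal were linked by a block (0.50, adjusted p = 0.304).

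**Figure D1:**
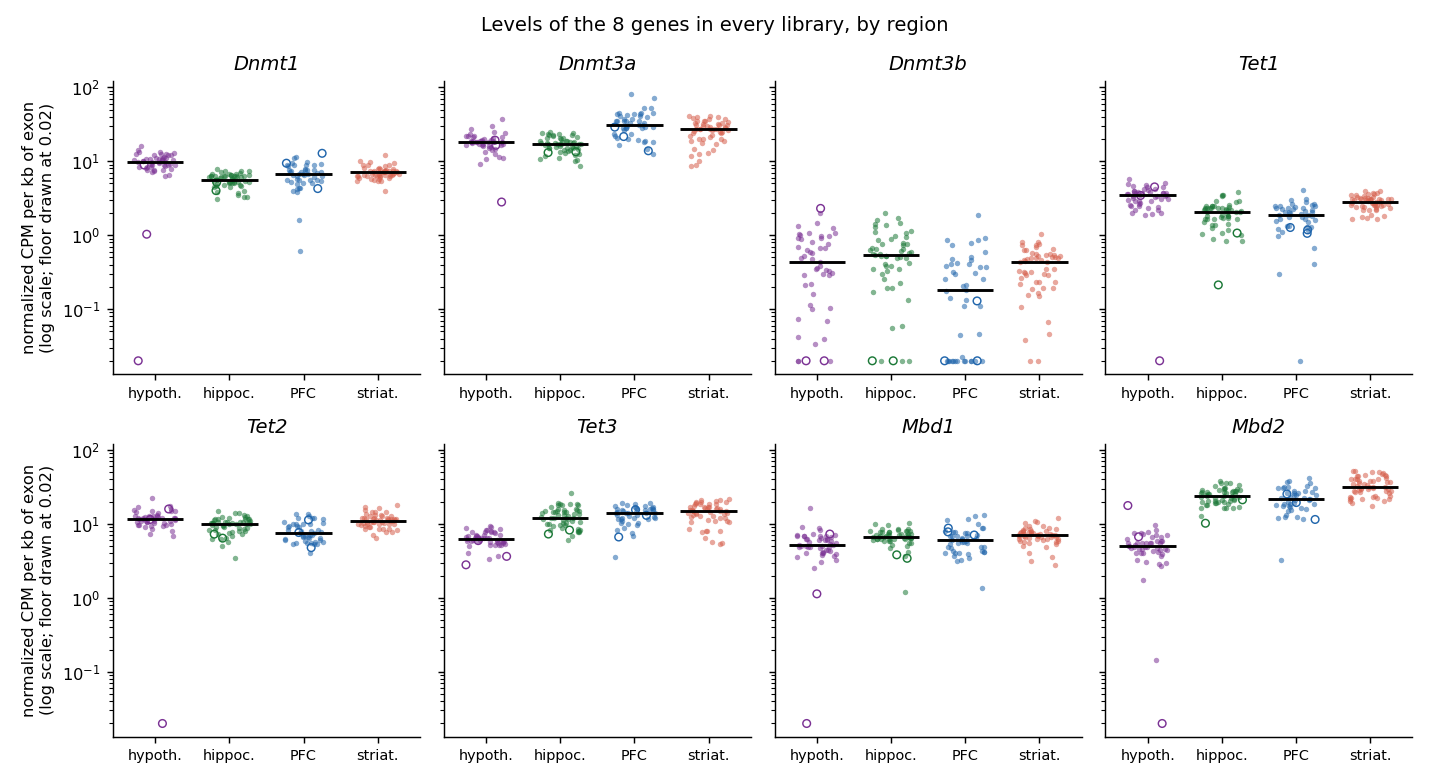
Normalized CPM per kb of exon (y axis, log scale) of each of the 8 genes in the 208 libraries, by region (x axis and colour). Points are libraries, open ones of low depth, values at 0 are drawn at the floor of the axis, and the bars mark region medians, such as 18.1 in the hypothalamus and 30.7 in the PFC for Dnmt3a.

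Tet2 and Tet3 were the main TET transcripts, and Tet1 was the lowest of the 3 in every region. Medians per kb of Tet1 were 3.44 in hypothalamic, 2.07 in hippocampal, 1.90 in PFC and 2.80 in striatal libraries, against 11.8, 10.1, 7.62 and 11.1 for Tet2 and 6.26, 12.2, 13.9 and 14.9 for Tet3. The order of Tet2 and Tet3 turned between regions. In the hypothalamus Tet2 per kb stood above Tet3 in 50 of 51 libraries, by a factor of 1.88 at the medians, but it did so in only 4 of 48 PFC, 8 of 55 hippocampal and 12 of 54 striatal libraries. The turn came mainly from Tet3, which was lower in the hypothalamus (46.7 to 159, median 105 normalized CPM) than in the hippocampus (101 to 437, median 203), with a log2FC of 0.99 (SE 0.086, adjusted p = 8.21e-23 in edgeR). Among the other 3 regions Tet3 had medians of 248 in the striatum (89.1 to 358), 233 in the PFC (59.4 to 324) and 203 in the hippocampus. The hippocampus lay below the striatum by a margin that just missed the threshold (-0.19, 95% interval -0.36 to -0.02, adjusted p = 0.0558 in edgeR) and passed it with a correlation within animals (adjusted p = 0.049 in limma-voom), but the sign turned under library size scaling (0.019) and in the SAL-SAL libraries alone (0.14), and the PFC was separated from neither (adjusted p of 0.408 and 0.353 in edgeR). Tet2 had medians of 199 normalized CPM in the hypothalamus (0 to 378), 188 in the striatum (110 to 303), 170 in the hippocampus (58.4 to 252) and 129 in the PFC (68.3 to 232). Its step from the hippocampus down to the PFC was called (log2FC 0.25, SE 0.075, adjusted p = 0.00385 in edgeR) and the one from the hypothalamus to the striatum was not (-0.03 to 0.27). That from the striatum to the hippocampus (0.20, adjusted p = 0.0161 in edgeR) passed narrowly and was not called with the animal block (0.18, adjusted p = 0.052). Tet1, in which the CXXC domain binds unmethylated CpG, was higher in the striatum (25.3 to 61.9, median 43.3 normalized CPM) than in the hippocampus (3.28 to 60.1, median 32.02), at a log2FC of 0.49 (SE 0.11, adjusted p = 9.34e-05 in edgeR). Its excess in the hypothalamus over the striatum (0.28, adjusted p = 0.0231 in edgeR) did not hold with the animal block (0.23, adjusted p = 0.137).

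Of the 2 readers, Mbd2 varied most between regions of all 8 genes and Mbd1 least. Mbd2 had medians of 102 normalized CPM in the striatum (55.5 to 166), 77.0 in the hippocampus (32.8 to 123), 69.6 in the PFC (10.4 to 136) and 16.2 in the hypothalamus (0 to 57.0). The PFC exceeded the hypothalamus by a log2FC of 2.09 (95% interval 1.87 to 2.30, adjusted p = 1.03e-46 in edgeR), and the striatum exceeded the hippocampus by 0.49 (SE 0.0976, adjusted p = 7.55e-06). The hippocampus and PFC were not separated (-0.10 to 0.30). The highest hypothalamic value of Mbd2, 57.0 normalized CPM, came from a low-depth library, and without those libraries the hypothalamus reached 31.1, below the lowest striatal library at 55.5. Whether the hypothalamus matrix was counted in another way than the rest, which the genes found only there leave possible, was not tested for Mbd2, nor for Tet3 and its turn with Tet2 or any other level of the hypothalamus against the rest. Mbd1 had medians of 35.0, 45.2, 41.0 and 47.0 in the hypothalamus, hippocampus, PFC and striatum, and no pair of neighbouring regions was separated (adjusted p of 0.558, 0.437 and 0.164 in edgeR), though the hypothalamus lay below the hippocampus (-0.24, adjusted p = 0.0162) and the striatum (-0.31, adjusted p = 0.00217), both of which turned under library size scaling (0.021 and 0.17, not called). Per kb the readers were level in the hypothalamus, where Mbd2 was 0.967 times Mbd1, whereas Mbd2 was 3.54 to 4.51 times Mbd1 elsewhere.

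Such regional differences were common among all genes. Of the 8 genes, 6 were called between the hypothalamus and hippocampus, 7 between the hypothalamus and PFC, and 6 between the hypothalamus and striatum, beside 65.5%, 67.9% and 65.1% of all genes tested. Between the hippocampus and PFC 4 of 8 were called (46.3% of all genes), between the hippocampus and striatum 6 (45.4%), and between the PFC and striatum 4 (52.7%). With only 8 members, these counts are not read as differing from the shares of all genes. The median log2FC of all genes lay between -0.26 and 0.13. With the animal block the counts were 6, 7, 5, 4, 4 and 5 in the same order, beside 61.3%, 65.5%, 60.3%, 41.3%, 43% and 54.1% of all genes.

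Some of the smaller steps changed with the scaling or when low-depth libraries were left out. The median log2FC of all genes for the hypothalamus over the striatum was 0.01, 0.23 without the 8 low-depth libraries and 0.44 under library size scaling, so single values are best read against it. Without the low-depth libraries the hypothalamic genes gained on the striatal ones. Dnmt1 in the hypothalamus then exceeded the striatum by 0.74, Tet1 by 0.50 and Tet2 by 0.36 (adjusted p = 4.85e-07 in edgeR, not called with them), and Dnmt3b by 0.76 (adjusted p = 0.0344). For Dnmt3a the lead of the PFC over the striatum widened to 0.53, the value of the hypothalamus against the striatum went from -0.55 to -0.29, and the hypothalamus exceeded the hippocampus by 0.24 (adjusted p = 0.00936 in edgeR). The hypothalamic deficit of Mbd1 was no longer called (-0.14 against the hippocampus and -0.06 against the striatum), nor was the step of Tet2 from the hippocampus up to the striatum (-0.07). Under library size scaling the hypothalamus stood at -0.02 against the striatum for Dnmt3a, without a call. The low hypothalamic Tet3 and Mbd2 and the PFC lead of Dnmt3a over the striatum were called in 7 of 7 settings.

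None of the 8 genes was called between conditions within any region in the main fit, edgeR with TMM scaling. From here on, normalized CPM by condition or sex are scaled within the region. The test of each gene was edgeR's quasi-likelihood test with condition and sex as terms, adjusted by Benjamini-Hochberg over all genes of the region. Over the 5 contrasts and 4 regions, 0 of 160 tests of members passed an adjusted p of 0.05, 22 had an unadjusted p under 0.05, DESeq2 called 2 and limma-voom with a correlation within prefixes called 0. The smallest adjusted p was 0.0889. The calls of DESeq2 were both Tet2 in the hypothalamus, for MOR-LPS against MOR-SAL (4.4% of all genes called) and for the interaction (1.33%). Library size scaling in place of TMM called Dnmt3a and Tet1 for MOR-LPS against MOR-SAL in the hypothalamus (6.38% of all genes) and Tet2 in the striatum (1.74%), where limma on log2(CPM + 1) and log2(CPM + 0.1) called Tet2 as well (3.48% and 4.81%), and DESeq2's size factors in edgeR called Tet2 for the hypothalamic interaction (4.18%). The intervals bound what could have been missed: leaving out Dnmt3b, 110 of 112 intervals of the 4 contrasts between conditions lay within 1 log2 unit of 0, with a median half-width of 0.31, while the half-width for Dnmt3b was 1.18 at the median. Between males and females 0 of 32 tests were called by edgeR and 4 had an unadjusted p under 0.05, limma-voom with prefixes also called 0, and the shares called among all genes were 3.45%, 2.51%, 0.709% and 0.841% in the hypothalamus, hippocampus, PFC and striatum, and 15.6%, 15.6%, 12.7% and 13.0% at an unadjusted p under 0.05. The lowest of these adjusted p was that of Tet1 in the hippocampus, lower in males by 0.35 (adjusted p = 0.17 in edgeR).

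**Figure D2:**
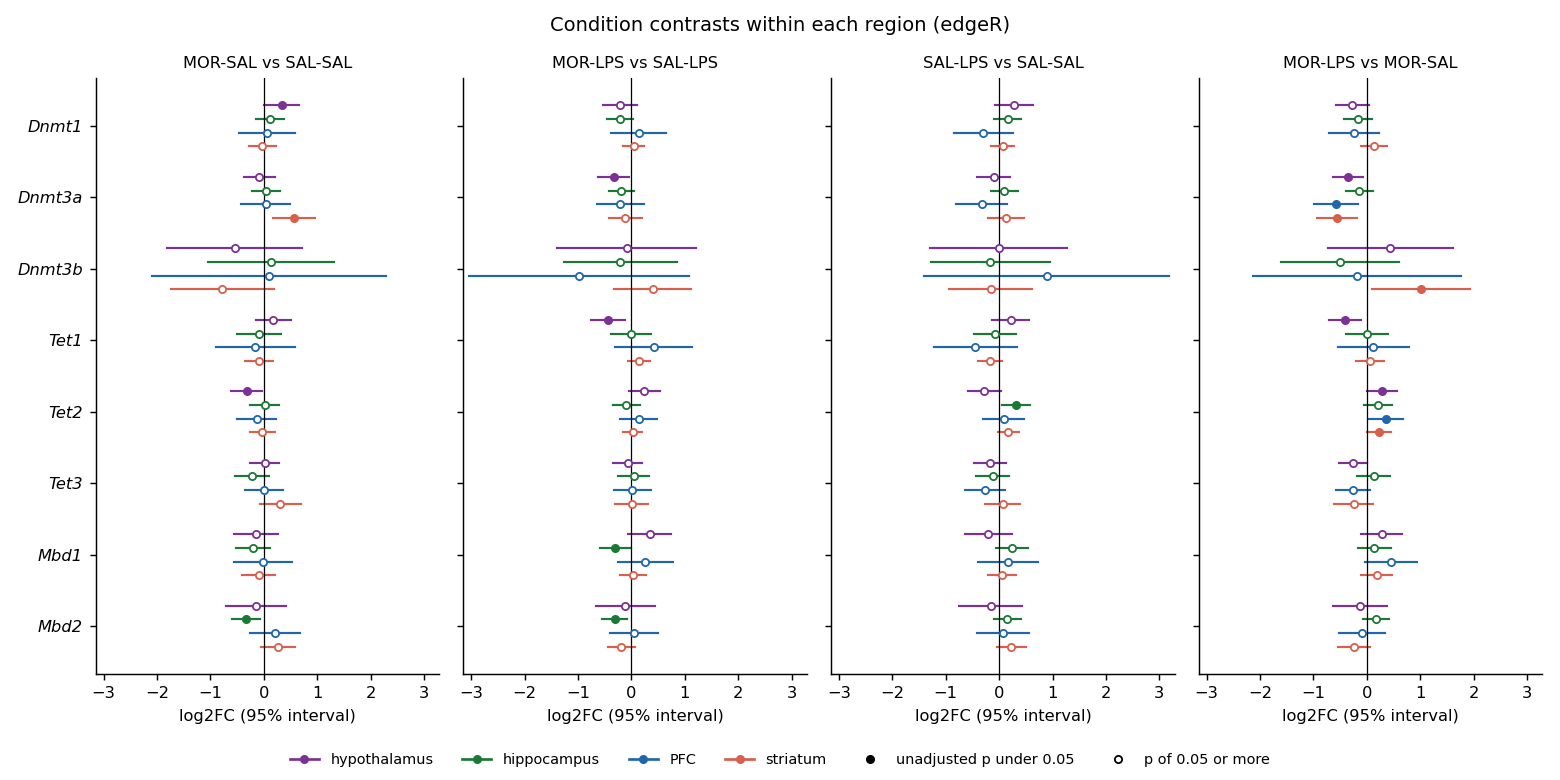
Fitted log2FC (x axis) with 95% intervals for the 8 genes in the 4 contrasts between conditions, coloured by region, filled where the unadjusted p was under 0.05. Intervals of Dnmt3b are the widest, and those of Dnmt3a lie below 0 for MOR-LPS vs MOR-SAL in the hypothalamus, PFC and striatum.

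Perinatal morphine alone, MOR-SAL against SAL-SAL, gave no call for the writers, TETs or readers. For this contrast 0 of 8 members were called in each region, beside 1.44%, 0%, 0% and 0% of all genes in the hypothalamus, hippocampus, PFC and striatum. At an unadjusted p under 0.05 there were 2, 1, 0 and 1 members, beside 17.3%, 10.3%, 10.1% and 11.5% of all genes. These were Tet2 and Dnmt1 in the hypothalamus, Mbd2 in the hippocampus and Dnmt3a in the striatum. Striatal Dnmt3a ran from 192 to 504 normalized CPM in SAL-SAL (median 377) and from 288 to 667 in MOR-SAL (median 516), a log2FC of 0.57 (SE 0.198, adjusted p = 0.29 in edgeR). The groups overlapped between 288 and 504, and the MOR-SAL median lay above the highest SAL-SAL library. The summed thalamus markers described below moved with the groups, at medians of 2548 and 4507 normalized CPM, and with that sum as a covariate the log2FC was 0.22 (adjusted p = 0.61 in edgeR). Hippocampal Mbd2 had a median of 81.4 normalized CPM in SAL-SAL and 62.1 in MOR-SAL, with a log2FC of -0.33 (SE 0.129, adjusted p = 0.251 in edgeR). In the hypothalamus Dnmt1 was at 0.34 (adjusted p = 0.282) and Tet2 at -0.32 (adjusted p = 0.236 in edgeR). The hypothalamic SAL-SAL libraries differed from the rest in markers of neighbouring tissue, with a median sum of 3 choroid plexus markers of 30.35 normalized CPM, against 4.016 in MOR-SAL, 3.01 in SAL-LPS and 8.33 in MOR-LPS. The part of these in the values was not tested.

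Under LPS, MOR-LPS against SAL-LPS, the members again gave 0 calls of 8 in each region, beside 1.03%, 2.73%, 0.0046% and 0% of all genes in the same order, and 2, 2, 0 and 0 at an unadjusted p under 0.05, beside 13.9%, 17.0%, 13.0% and 11.2%. The reader Mbd2 in the hippocampus was the nearest. It ran from 63.3 to 119 normalized CPM in SAL-LPS (median 90.7) and from 54.3 to 88.5 in MOR-LPS (median 72.4), with a log2FC of -0.32 (SE 0.117, adjusted p = 0.111 in edgeR), and 0 of 16 MOR-LPS libraries lay above the SAL-LPS median. With the value after saline this put Mbd2 lower in morphine-exposed animals at either challenge, without a call at either. Mbd1, its relative, was at -0.30 (SE 0.143, adjusted p = 0.256) in the same region. In the hypothalamus Tet1 was at -0.45 (SE 0.16, adjusted p = 0.135 in edgeR) and Dnmt3a at -0.33 (SE 0.144, adjusted p = 0.245 in edgeR). The direction of Tet1 turned in limma on log2(CPM + 1), at 0.20, and on log2(CPM + 0.1), at 0.48, and held in 30 of 32 alternatives. The 1 SAL-LPS library at 0 counts of Tet1 held 7673 counts in total, and its part in the turn was not tested. Glial markers moved with this contrast as well, the median astrocyte sum being 30.37 normalized CPM in SAL-LPS and 163.1 in MOR-LPS in the hypothalamus. In the hippocampus the median microglial sum was 7.646 in SAL-LPS and 12.39 in MOR-LPS, and that of oligodendrocyte markers 313.6 and 379.9 (means 348.5 and 744.3). Their part in the values of Mbd2, Tet1 and Dnmt3a was not tested.

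LPS in saline-reared animals, SAL-LPS against SAL-SAL, gave 0 calls of 8 in each region, beside 0.246%, 2.55%, 0% and 0.0128% of all genes. Of all genes 14.0%, 17.5%, 12.7% and 11.7% had an unadjusted p under 0.05, and the 1 such test among the members was hippocampal Tet2, from 87.4 to 224 normalized CPM in SAL-SAL (median 139) and 124 to 242 in SAL-LPS (median 184), with a log2FC of 0.32 (SE 0.132, adjusted p = 0.165 in edgeR). Over 16 alternative settings this log2FC ran from 0.07 to 0.55. In morphine-exposed animals, MOR-LPS against MOR-SAL, 0 of 8 were called in each region in the main fit as well, beside 6.27%, 0.467%, 0.0184% and 1.39% of all genes. The calls of other settings are given above. At an unadjusted p under 0.05 there were 3, 0, 2 and 3 members, beside 20.5%, 14.3%, 13.2% and 17.8% of all genes. It was here that the tests of the members came nearest to the threshold, with hypothalamic Tet1 at -0.41 (SE 0.151, adjusted p = 0.0889 in edgeR), from 45.3 to 86.9 normalized CPM in MOR-SAL (median 65.8) to 34.1 to 89.8 in MOR-LPS (median 43.7). Markers of glia and of the hypothalamus itself moved with these hypothalamic groups. The sum of 5 astrocyte markers, none of them at 0 in every library, ran from 14.35 to 43.56 normalized CPM in MOR-SAL (median 25.11) and from 15.72 to 720.3 in MOR-LPS (median 163.1), against medians of 18.88 in SAL-SAL and 30.37 in SAL-LPS. That of 6 oligodendrocyte markers ran from 71.15 to 638.1 in MOR-SAL (median 329.7) and from 224.6 to 6144 in MOR-LPS (median 550.3). The sum of the 7 hypothalamic neuropeptide genes had a median of 59.82 in MOR-SAL and 15.13 in MOR-LPS, with ranges of 5.787 to 187.6 and 0.6793 to 283.9. Over 48 hypothalamic libraries r with the astrocyte sum was 0.076 for Tet1, -0.32 for Dnmt3a and 0.094 for Tet2, and the part of glia or of dissection in these values of single regions was not tested. For the interaction, the difference between both LPS responses, 0 of 8 were called in each region in the main fit, beside 3.8%, 2.35%, 1.78% and 0.00854% of all genes. Unadjusted, 3, 0, 0 and 2 were under 0.05, beside 15.6%, 12.8%, 11.5% and 14.8%, and Dnmt1 (-0.55), Tet1 (-0.62) and Tet2 (0.56) in the hypothalamus had adjusted p of 0.2, 0.115 and 0.121 in edgeR. The 2 in the striatum were Dnmt3a (-0.68) and Mbd2 (-0.46), with adjusted p of 0.185 or more in edgeR. In limma on log2(CPM + 0.1) the signs of hypothalamic Dnmt1 (0.13) and Tet1 (0.21) turned. The SAL-LPS library of 7673 counts in total was at 0 for both genes, and its part in this was not tested.

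For Dnmt3a and Tet2 the estimates of the response to LPS in morphine-exposed animals had the same sign in all 4 regions, below 0 for the writer and above 0 for the oxidase. Neither was called in any 1 region in the main fit, and the calls of other settings are given above. In the hypothalamus Dnmt3a had 292 to 572 normalized CPM in MOR-SAL (median 352) and 178 to 400 in MOR-LPS (median 310). In the hippocampus it had 215 to 357 (289) and 179 to 410 (258), in the PFC 296 to 1220 (525.9) and 242 to 677 (439), and in the striatum 288 to 667 (516) and 139 to 559 (347). The groups overlapped in each region. The MOR-LPS libraries above the MOR-SAL median of Dnmt3a numbered 3 of 14, 4 of 16, 5 of 16 and 1 of 18 in these regions. The log2FC of Dnmt3a were -0.36 (SE 0.138, adjusted p = 0.103), -0.14 (SE 0.126, adjusted p = 0.709), -0.57 (SE 0.206, adjusted p = 0.156) and -0.56 (SE 0.186, adjusted p = 0.104) in edgeR. Tet2 leaned the other way, at 181 to 252 normalized CPM in MOR-SAL (median 212) and 133 to 428 in MOR-LPS (median 247) in the hypothalamus, 64.3 to 203 (157) and 113 to 214 (167) in the hippocampus, 86.1 to 202 (108) and 87.6 to 213 (152) in the PFC, and 122 to 172 (146) and 108 to 241 (166) in the striatum. The MOR-LPS libraries above the MOR-SAL median of Tet2 numbered 11 of 14, 10 of 16, 13 of 16 and 14 of 18. Its log2FC were 0.28, 0.21, 0.35 and 0.22, with adjusted p of 0.225, 0.528, 0.34 and 0.272 in edgeR. Over the alternative settings the value of Tet2 ran from 0.137 to 0.369 in the hypothalamus, 0.018 to 0.659 in the PFC and 0.162 to 0.39 in the striatum. Dnmt3a was the only 1 of the 8 genes with all 4 estimates below 0, and 2 genes, Tet2 and Mbd1, had none below 0. The share of all genes with 4 estimates of the same sign was not counted, so this is not read as particular to these genes. The median log2FC of all genes was 0.003, 0.025, 0.061 and 0.108 in the hypothalamus, hippocampus, PFC and striatum.

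**Figure D3:**
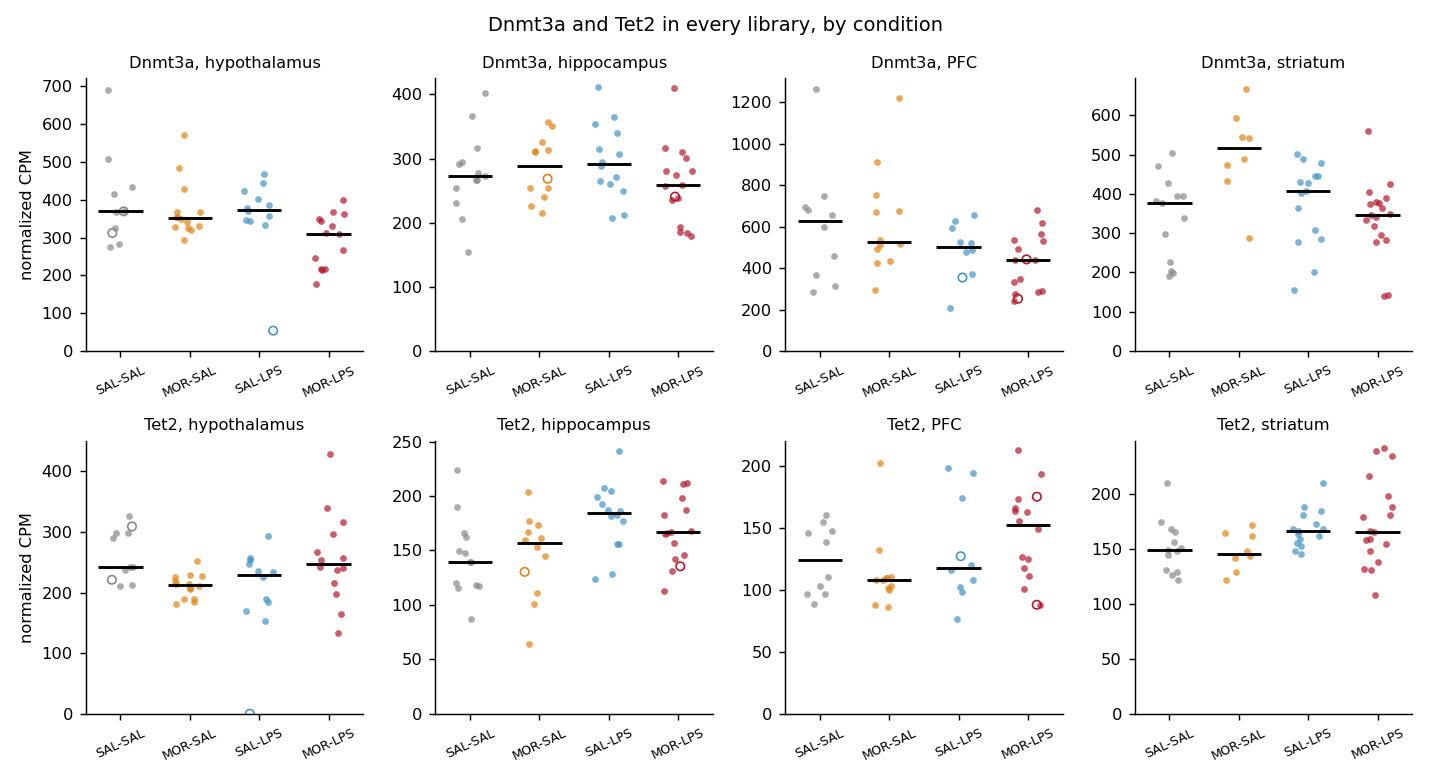
Dnmt3a and Tet2 in CPM normalized within the region (y axis) by condition (x axis) and region. Points are libraries, open ones of low depth, and bars the medians, which for Dnmt3a are 516 in MOR-SAL and 347 in MOR-LPS in the striatum, with overlapping groups.

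A joint fit pooled the regions, since each animal gave up to 4 libraries. It was added after the regional values had been seen, so it describes a pattern and does not test it independently. In this limma-voom fit, with a correlation within animals (0.0148) and the contrast averaged over the 4 regions, Dnmt3a was lower in MOR-LPS than in MOR-SAL by a log2FC of -0.41 (SE 0.0912, adjusted p = 0.00144) and Tet2 was higher by 0.25 (SE 0.072, adjusted p = 0.0192). The other 6 genes were not called, and 4.45% of the 19478 genes tested were. Leaving out the low-depth libraries gave -0.40 and 0.26 for the same genes (adjusted p of 0.000803 and 0.00419, 5.24% of all genes called), and leaving out the 9 libraries at odds with their labelled sex gave -0.43 and 0.24 (0.00146 and 0.0375 in limma-voom, 4.36%). A correlation within prefixes in place of animals gave -0.41 and 0.25 (0.00113 and 0.0166, 4.83%), and edgeR -0.39 and 0.27 (0.000544 and 0.00577, 10.4%). The call of Dnmt3a was lost when glial markers were taken into account. With the log2 sum of 14 astrocyte, oligodendrocyte and microglia markers as a covariate Dnmt3a was at -0.28 (SE 0.0903, adjusted p = 0.133 in limma-voom), whereas Tet2 was at 0.30 and still called (adjusted p = 0.0173), with 0.724% of all genes called. The marker sums moved with the contrast outside the hypothalamus too. From MOR-SAL to MOR-LPS the median astrocyte sum (4 of 5 markers, Gfap being at 0) went from 25.41 to 49.05 normalized CPM for PFC libraries, 23.31 to 43.16 for striatal and 44.93 to 46.72 for hippocampal ones. The microglial sum (4 of 5, P2ry12 being at 0) went from 9.351 to 26.39, 7.602 to 15.25 and 12.35 to 12.39 in the same order, and the neuronal sum from 6268 to 5146, 5877 to 4947 and 4924 to 5802. Pearson's r of Dnmt3a with the astrocyte sum was -0.32, -0.51, -0.21 and -0.32 in the hypothalamus, hippocampus, PFC and striatum, over libraries sharing depth and dissection. In saline-reared animals the same response was -0.02 for Dnmt3a (adjusted p = 0.972) and 0.07 for Tet2 (adjusted p = 0.79) in limma-voom, and 1.13% of genes were called. The difference between the responses of the exposures was not called for either gene, at -0.39 (SE 0.133, adjusted p = 0.179, and 0.0856 to 0.749 over the other settings) for Dnmt3a and 0.19 (adjusted p = 0.511) for Tet2 with 0.0821% of genes called, so it was not shown that the response depends on the exposure. None of the 8 genes was called for MOR-SAL against SAL-SAL, MOR-LPS against SAL-LPS or the sexes, beside 0%, 1.08% and 5.64% of all genes in limma-voom.

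**Figure D4:**
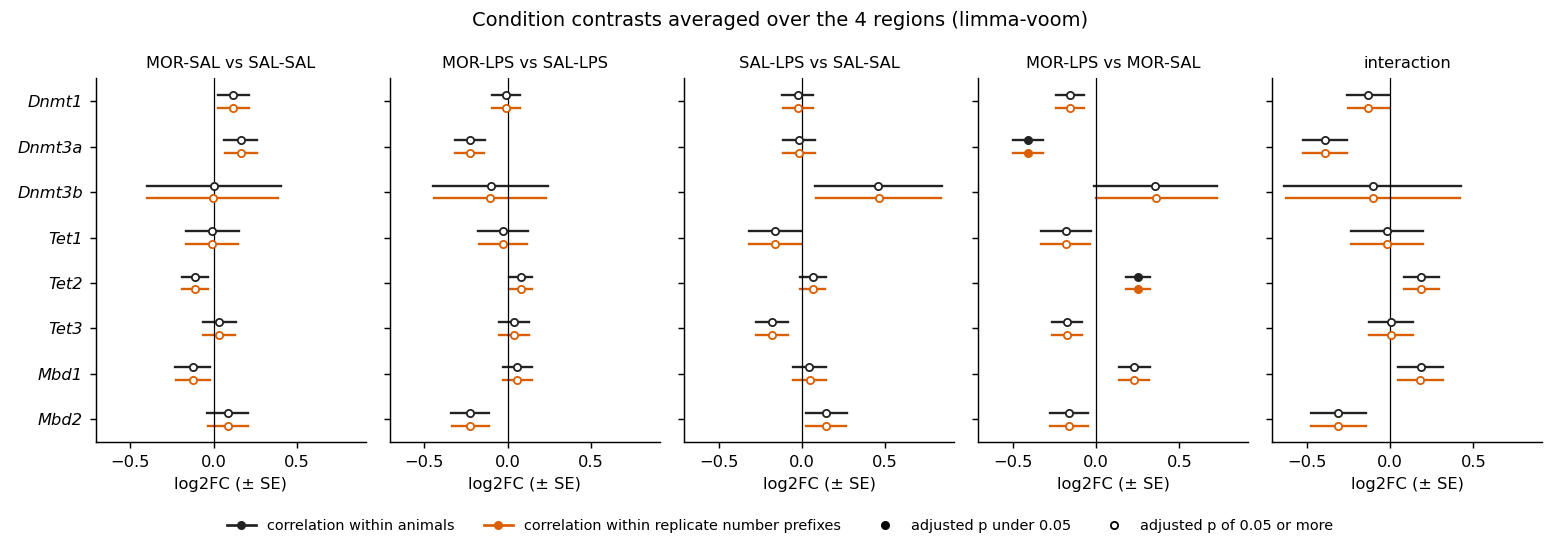
Log2FC (x axis) of the 8 genes averaged over the 4 regions in the joint limma-voom fit, for each contrast. Bars span 1 SE to either side, colours give the block used for the correlation, and filled points passed an adjusted p of 0.05. For MOR-LPS vs MOR-SAL Dnmt3a sits at -0.41, a call that was lost with the glial covariate (-0.28, not plotted), and Tet2 at 0.25.

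Dnmt3a followed the sum of a thalamus marker list across libraries, mainly through 1 gene of the list, Rora. The list held Prkcd, Tcf7l2, Lef1 and Rora as markers of thalamic neurons. Over 48, 53, 45 and 54 libraries of the hypothalamus, hippocampus, PFC and striatum, all sharing their library's depth and dissection, Pearson's r of Dnmt3a with the log2 sum of the list was 0.37, 0.74, 0.75 and 0.88. Rora, which is also expressed outside the thalamus, made up 38.8%, 91%, 98.2% and 89% of the sum, so most of it outside the hypothalamus. With Rora alone r was 0.467, 0.767, 0.759 and 0.916. With Prkcd it was 0.172, 0.0371, -0.113 and 0.0547, with Tcf7l2 0.00696, 0.0161, -0.125 and 0.175, and with Lef1 0.181, 0.13, -0.216 and 0.164. Tet2 had r with Rora of 0.103, 0.167, 0.118 and 0.373. The median sum in the striatum was 2548 normalized CPM in SAL-SAL, 4507 in MOR-SAL, 4112 in SAL-LPS and 3087 in MOR-LPS, and in the PFC it was 1827, 1930, 2222 and 1722 in the same order. In the hypothalamus it was 285.7, 155.0, 178.9 and 176.5, with means of 842.1 (highest library 3022), 219.7, 213.3 and 227.1. With the sum as a covariate, the striatal Dnmt3a interaction moved from -0.68 to -0.18 (adjusted p = 0.75 in edgeR). Elsewhere the values did not shrink alike. The Dnmt3a interaction went from -0.25 to -0.43 in the hypothalamus (adjusted p = 0.334), from -0.23 to -0.27 in the hippocampus and from -0.25 to -0.20 in the PFC, and MOR-SAL against SAL-SAL in the hypothalamus went from -0.08 to 0.09 (adjusted p = 0.926 in edgeR). The response to LPS in morphine-exposed animals stayed below 0, at -0.51 in the PFC, -0.37 in the hypothalamus, -0.34 in the striatum and -0.28 in the hippocampus (adjusted p of 0.0731, 0.0724, 0.0747 and 0.14 in edgeR). In the joint fit it was -0.37 (SE 0.0563, adjusted p = 4.88e-07 in limma-voom, with 5.12% of genes called), and Tet2 was 0.26 (adjusted p = 0.00884). In the joint fit with this covariate Tet3 was also called lower in SAL-LPS than in SAL-SAL, at -0.29 (adjusted p = 0.0279 in limma-voom, 1.29% of genes called, and -0.18 with adjusted p = 0.441 without the covariate).

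**Figure D5:**
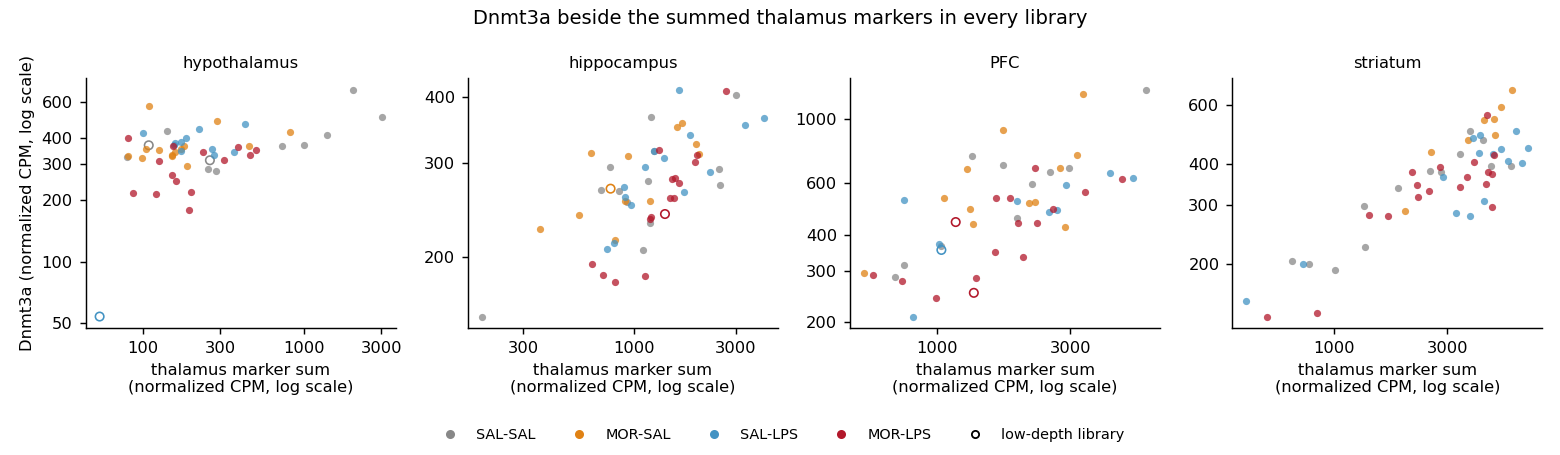
Dnmt3a (y axis) against the summed thalamus markers (x axis), both in CPM normalized within the region on log axes, per library and region, coloured by condition. Points rise together most closely in the striatum, where r is 0.88, and least in the hypothalamus, where r is 0.37. Rora makes up 89% of the sum in the striatum and 38.8% in the hypothalamus.

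Of the genes Fkbp5, Sgk1, Tsc22d3 and Zbtb16, which are known to respond to glucocorticoids, 3 of 4 were called higher in MOR-LPS than in MOR-SAL in the hypothalamus, where 6.27% of all genes were called in either direction and the glial marker sums stood higher as given above. Their log2FC were 2.04 for Zbtb16 (adjusted p = 0.000176), 1.53 for Sgk1 (0.00723) and 1.46 for Fkbp5 (0.00877 in edgeR). In the striatum 1 of 4 was called (1.39% of all genes), and in the hippocampus and PFC 0 of 4 (0.467% and 0.0184%). In saline-reared animals 0 of 4 were called in each region by edgeR, with 0.246%, 2.55%, 0% and 0.0128% of all genes called in the hypothalamus, hippocampus, PFC and striatum and 3 of the 16 values at an unadjusted p under 0.05, all of Fkbp5. Striatal Fkbp5 was at 0.84 (SE 0.198, adjusted p = 0.0259) in morphine-exposed and 0.77 (SE 0.172, adjusted p = 0.0706 in edgeR) in saline-reared animals, and hypothalamic Fkbp5 at 0.97 (SE 0.401, adjusted p = 0.222 in edgeR) in the latter. The difference between the exposures is not given for these 4 genes, so it is not shown that their response depends on the exposure. Striatal Sgk1 was at -0.49 (adjusted p = 0.241 in edgeR) in morphine-exposed animals.

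The wider pathway was counted in the same tests. A list of 48 further genes covered partners of the writers, other methyl-CpG readers, demethylation and repair, TET partners, methyl donor synthesis and the reader complexes, and 47 were tested in all regions. Another, Dnmt3l, the germline partner of the DNMT3 enzymes, was not, with total counts of 6, 76, 6 and 14. Among the list's 1140 tests of condition and sex, 2 (0.175%) were called by edgeR, beside 0% to 6.27% of all genes over the same contrasts and regions, and 91 (7.98%) passed an unadjusted p of 0.05, beside 10.1% to 20.5%. The list's median log2FC lay near that of all genes in each contrast, for example 0.03 beside 0.00 in the hypothalamus and 0.06 beside 0.11 in the striatum for MOR-LPS against MOR-SAL. The 1 call between conditions was the interaction of Cxxc1 in the PFC, a CXXC protein that binds unmethylated CpG. Its medians were 10.4 normalized CPM in SAL-SAL, 25.8 in MOR-SAL, 33.7 in SAL-LPS and 18.8 in MOR-LPS, with an interaction of -1.86 (SE 0.446, adjusted p = 0.031 in edgeR), called in 9 of the 16 settings tried. The other was Idh2, which makes the 2-oxoglutarate used by TET enzymes, lower in males (median 28.3) than in females (41.0 normalized CPM) in the hippocampus by 0.45 on the log2 scale (SE 0.117, adjusted p = 0.0242 in edgeR, called in 3 of 4 settings).

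Levels across the pathway placed the 8 genes among their partners. Per kb, in the order hypothalamus, hippocampus, PFC and striatum, Uhrf1, which guides DNMT1 to newly replicated DNA, had medians of 0.0984, 0.0828, 0.0189 and 0.141 normalized CPM, far below those of Dnmt1. Its relative Uhrf2 stood at 7.35, 8.70, 6.40 and 9.52. Among other readers Mbd3, the NuRD subunit that shares a place with MBD2, had medians per kb of 10.5, 18.7, 28.5 and 11.8. Mbd5 was lowest in the hypothalamus, as Mbd2 and Tet3 were, at 5.73 against 17.4, 14.5 and 25.2, whereas Mbd6 (10.73 against 2.77, 8.10 and 5.34) and Zbtb4 (8.92 against 5.32, 5.03 and 5.75) were highest there. Tdg, the glycosylase that removes oxidised methylcytosine, had medians per kb of 4.09, 4.51, 3.43 and 4.55. Ogt, the sugar transferase that binds TET proteins, was the highest of the list in each region, at 106, 57.3, 39.4 and 77.7.

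The genes most like each member were found by the mean over the 4 regions of Pearson's r across the libraries that were not of low depth, among 9802 genes, with libraries sharing depth and dissection. Those of Dnmt3a were Mical3 (mean r 0.773), Jakmip1 (0.753) and Ajap1 (0.74). Those of Tet3 were Mcf2l (0.698), Ntrk2 (0.696) and Lincpint (0.69), and those of Mbd2 were Cdkal1 (0.674), Hmbox1 (0.601) and Mctp1 (0.596). The other members had weaker best matches. Those of Tet2 were Rbm33 (0.514), Rprd1b (0.51) and Lincpint (0.508), and those of Mbd1 were Mcrs1 (0.505), Dpysl4 (0.496) and Mthfd1 (0.495). For Tet1 they were Caap1 (0.486), Crot (0.476) and Hps5 (0.444), and for Dnmt1 Gpld1 (0.479), Dlg5 (0.464) and Sema4g (0.458), while Dnmt3b was too low to be ranked. Among the members themselves, Dnmt3a and Tet3 were the most alike pair, with a mean r of 0.5 that was 0.85 in striatal, 0.68 in hippocampal, 0.48 in PFC and 0.0086 in hypothalamic libraries. Dnmt3a and Tet2 had r of -0.07, 0.24, -0.08 and 0.37 in the hypothalamus, hippocampus, PFC and striatum.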

How the data were processed

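The authors trimmed reads with Trim Galore 0.6.7, aligned them to mm10 with STAR 2.7.10a and deposited raw counts per gene and the same values as CPM, scaled by library total. Here CPM recomputed from the counts matched the deposited CPM, in which mitochondrial genes are left out. Counts were scaled by TMM, for genes whose total exceeded 10, and fitted per region in edgeR 4.0.16 (R 4.3.3; quasi-likelihood, condition and sex as terms), with Benjamini-Hochberg adjustment over all genes tested. Regions were compared in 1 edgeR fit of the 208 libraries. The joint fit used limma 3.58.1 (voom, statmod 1.5.0) and DESeq2 1.42.0 was an alternative. The edgeR, DESeq2 and limma fits used within a region and the edgeR contrast of regions were tested on simulated data. The joint fit, the covariates and the animal block were not. Libraries with the same replicate number were taken as 1 mouse, and the median correlation of their deviations lay between -0.035 and 0.072 over the pairs of regions. Groups came from the labels, 0 pairs of libraries held identical counts, and every library entered each fit unless stated. The members and gene lists were chosen with earlier results of these data known. Named genes were the 8 members, pathway genes called in any contrast, and the 3 genes most like each member; other pathway genes are named for their levels, which had been seen. Total counts limit the precision of Dnmt3b in particular. P-values rest on animals that may share litters.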

Additional observations from a re-analysis of the deposited data

Results flagged for a closer look

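Within the groups of 8 to 10 libraries, 3 of 24 combinations of gene and group held 1 library far from the rest by Dixon's criterion, which marks about 1 in 20 by chance. Values are CPM normalized within the region. Dnmt3a reached 1260.0 normalized CPM in SAL-SAL library 5-1 of the PFC, where the next library stood at 747 and the lowest at 287. Dnmt3b reached 9.45 normalized CPM, from 114 counts, in SAL-LPS library 1-0 of the PFC, where the next stood at 4.07. Tet1 reached 46.1 normalized CPM in SAL-SAL library 9-4 of the PFC, above the next at 33.4 and the lowest at 19.1. None of the 3 libraries was of low depth. Library 5-1 had the fewest genes detected in the PFC, 10825, with 13.97% of its counts in Rn18s-rs5 and 1.762% mitochondrial. Its thalamus marker sum was 5605 normalized CPM, the highest in the PFC.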

How the results depend on the processing

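Of the 405 alternatives to the counts of members called between conditions or sexes, 397 left the count at 0 and 8 moved it. For MOR-LPS against MOR-SAL in the hypothalamus, library size scaling called 2 (Dnmt3a and Tet1) and DESeq2 1 (Tet2), and leaving out 1 replicate number prefix at a time gave 0 to 1, the 1 being Tet1 without prefix 7. In the striatum library size scaling called 1, as did limma with log2(CPM + 1) and with log2(CPM + 0.1) (Tet2), and for the hypothalamic interaction DESeq2 and its size factors called 1 each (Tet2). With the prefix as a replicate block the LPS contrasts had 0 calls, and libraries of 1 prefix and different challenges had median correlations of their deviations of -0.045, -0.057, 0.0045 and 0.11 in the hypothalamus, hippocampus, PFC and striatum, so the prefix is not shown to pair them. The alternatives chosen after seeing the data were the joint fits, the thalamus and glial covariates and the removal of libraries at odds with their labelled sex. That removal changed no count by over 1.5 times. Between regions, the SAL-SAL libraries alone, which are fewer, called 3 members for hypothalamus and striatum, 1 for hippocampus and PFC, 0 for hippocampus and striatum, and 1 for PFC and striatum, beside 36.2%, 13.6%, 9.26% and 13.1% of all genes, and for the last pair a correlation within animals called 7 (63% of all genes).

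Signs turned in the following values. In limma on log2(CPM + 1) hypothalamic Tet1 was 0.20 for MOR-LPS against SAL-LPS. With log2(CPM + 0.1) it was 0.48 there and 0.21 for the interaction, with Dnmt1 at 0.13. Under library size scaling the first region over the second gave 0.14 for Dnmt3b and 0.021 for Mbd1 (hypothalamus, hippocampus), 0.14 for Mbd1 (hypothalamus, PFC), 0.17 for Mbd1 (hypothalamus, striatum), 0.15 for Mbd1, 0.0048 for Tet2 and 0.019 for Tet3 (hippocampus, striatum), and 0.064 for Dnmt1, 0.028 for Mbd1 and 0.061 for Tet3 (PFC, striatum). Without low-depth libraries they were 0.071 for Mbd1 (hippocampus, striatum) and 0.082 for Dnmt1, 0.024 for Mbd1 and 0.097 for Tet3 (PFC, striatum). In SAL-SAL alone they were 0.059 for Mbd1 and 0.14 for Tet3 (hippocampus, striatum), and 0.23 for Dnmt1 and 0.30 for Tet3 (PFC, striatum). In the joint fits, where none of these was called, Dnmt3b for MOR-SAL against SAL-SAL was -0.0057 with prefixes, -0.036 without libraries at odds with their labelled sex, -0.048 with the thalamus covariate and -0.28 in edgeR, and Tet3 -0.022 with the covariate. For MOR-LPS against SAL-LPS, Dnmt1 was 0.0018 with the covariate and 0.019 with the glial one, Dnmt3b 0.089 without low-depth libraries, and Tet1 0.022 and Tet3 -0.015 in edgeR. For SAL-LPS against SAL-SAL Dnmt1 was 0.065 in edgeR. For the interaction Dnmt3b was 0.020 without low-depth libraries and 0.018 in edgeR, Tet1 0.036 with the covariate, 0.016 with the glial one and 0.061 in edgeR, and Tet3 -0.0070 without libraries at odds with their labelled sex and -0.051 in edgeR. For the sexes Tet3 was 0.030 without low-depth libraries, 0.049 with the covariate and 0.0093 in edgeR. The causes were not tested. Depth limits Dnmt3b most.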

Other observations

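Several partners of the 8 genes had regional levels of their own, given here per kb of exon as medians of jointly normalized CPM with no test. Whether the hypothalamus matrix was counted in another way than the rest was not tested, which touches every hypothalamic level below. Gadd45a, a stress-induced gene linked to active demethylation, stood at 2.15 in the hypothalamus, against 0 in the PFC, 0.0879 in the striatum and 0.186 in the hippocampus. Its relative Gadd45b was lowest in the hypothalamus, at 0.909 against 2.58, 1.61 and 1.56 in the same order. Cxxc4 and Cxxc5, CXXC proteins related to the DNA-binding part of TET enzymes, stood apart in the hypothalamus, where Cxxc4 was highest and Cxxc5 lowest, with Cxxc4 at 4.65, 0.820, 1.505 and 2.20 and Cxxc5 at 3.81, 11.1, 12.0 and 7.49 in the hypothalamus, hippocampus, PFC and striatum. Mat2a, which makes the methyl donor, was highest in the hypothalamus at 57.6 against 24.9, 21.8 and 34.4 in the hippocampus, PFC and striatum.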
